A study of Homo sapiens with 6 samples.

Results

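The aryl hydrocarbon receptor (AhR) complex and its feedback repressors were followed as 9 genes, chosen by name from the 61228 gene names of the deposited tables: the receptor *AHR*, its partners *ARNT* and *ARNT2*, the chaperones *HSP90AA1*, *HSP90AB1* and *PTGES3*, the repressors *AHRR* and *TIPARP*, and *NRIP1*, which was grouped with the repressors. All 9 were among the 15373 genes with enough counts to be tested. The samples were HBE cells, a wild-type human bronchial epithelial line described in the methods as immortalized (HBECs). The exposure lasted 24 h, with cockroach extract (CRE) in 3 libraries and CRE with the AhR agonist VAF347 in 3 libraries. Every library thus carried the allergen, and CRE with the agonist is compared with CRE without it. The methods describe VAF347 as a pre-treatment before CRE. They name no vehicle for the cells with CRE alone, so the agonist and its solvent cannot be told apart. Libraries of untreated cells or of VAF347 alone were not analysed here. Nothing in the labels says whether replicates came from separate cultures, and p-values then measure only the spread between these libraries.

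In resting cells AhR is held in the cytosol by a pair of HSP90 chaperones together with further co-chaperones, among them p23, encoded by *PTGES3*. A bound ligand sends the receptor to the nucleus, where it releases the chaperones, pairs with ARNT and binds DNA at the core sequence GCGTG. Targets of this dimer include cytochrome P450 genes and also *AHRR*, which competes for ARNT and for the DNA site, and *TIPARP*, an ADP-ribosyltransferase (PARP7) that modifies AhR and promotes its loss. *NRIP1*, which encodes the nuclear receptor corepressor RIP140, is known to associate with AhR.

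The promoters of *AHRR*, *TIPARP* and *PTGES3* are given because these are the members with the largest fitted increases. That of *NRIP1* is given as the remaining gene of the repressor group. Each is the RefSeq window of 300 bases, from 250 before to 50 after a start site, on build GRCh38.p14, at the start that GENCODE v44 gives the MANE Select transcript. The windows lie at chr5:321464-321763 (plus strand) for *AHRR*, chr3:156674340-156674639 (plus strand) for *TIPARP*, chr21:15064951-15065250 (minus strand) for *NRIP1* and chr12:56688235-56688534 (minus strand) for *PTGES3*. Capitals mark GCGTG, or CACGC where the core is on the other strand.
AHRR: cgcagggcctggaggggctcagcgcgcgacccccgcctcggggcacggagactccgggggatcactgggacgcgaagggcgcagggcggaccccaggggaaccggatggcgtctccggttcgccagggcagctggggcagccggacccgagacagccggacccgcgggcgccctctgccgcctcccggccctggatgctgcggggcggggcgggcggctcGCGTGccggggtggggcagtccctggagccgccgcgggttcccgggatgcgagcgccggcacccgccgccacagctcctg
TIPARP: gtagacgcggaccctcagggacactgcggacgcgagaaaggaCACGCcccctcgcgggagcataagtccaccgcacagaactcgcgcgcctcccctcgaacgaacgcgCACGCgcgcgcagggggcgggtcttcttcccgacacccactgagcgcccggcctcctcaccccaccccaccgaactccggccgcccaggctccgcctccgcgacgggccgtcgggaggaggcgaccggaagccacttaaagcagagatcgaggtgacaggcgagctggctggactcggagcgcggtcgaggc
NRIP1: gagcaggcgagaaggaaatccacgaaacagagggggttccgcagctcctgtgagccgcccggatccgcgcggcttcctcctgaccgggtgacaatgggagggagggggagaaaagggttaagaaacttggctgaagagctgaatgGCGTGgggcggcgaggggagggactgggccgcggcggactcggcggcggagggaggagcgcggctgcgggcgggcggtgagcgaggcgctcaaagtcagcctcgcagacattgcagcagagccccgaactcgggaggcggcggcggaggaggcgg
PTGES3: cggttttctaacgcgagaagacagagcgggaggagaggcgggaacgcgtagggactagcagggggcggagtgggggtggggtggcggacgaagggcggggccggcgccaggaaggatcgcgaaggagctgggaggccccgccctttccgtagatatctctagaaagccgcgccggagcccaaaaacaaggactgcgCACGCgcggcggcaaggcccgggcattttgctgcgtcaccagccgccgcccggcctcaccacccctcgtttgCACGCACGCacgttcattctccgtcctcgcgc
The search covered both strands and counted overlapping copies. *AHRR* held 1 copy, with its first base 30 bases before the start, and *NRIP1* held 1 copy, 105 bases before it. *TIPARP* held 2 copies on the opposite strand, at 208 and 142 bases before the start. *PTGES3* held 3 copies on the opposite strand, at -54, 19 and 23, of which the last pair overlap by 1 base. In the same windows *AHR*, *HSP90AA1* and *HSP90AB1* held 1 copy each and *ARNT* held 0. RefSeq windows were matched for 8 of the 9 members. Of 35116 such windows, 36.5% held at least 1 copy, 12.7% at least 2 and 4.3% at least 3, so that a copy is a frequent feature of promoters of this length.

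Of the 9 members, *AHRR* and *TIPARP* rose with VAF347 and the other 7 did not pass the threshold, which was an adjusted p under 0.05 with an absolute log2 fold change over 0.5. Over all genes tested, 2.21% passed this threshold in either direction, 0.501% with higher and 1.71% with lower counts. The median log2 fold change was 0.06 over the 9 members, 0.05 over the 7 that did not pass and 0.01 over all genes tested. Counting any fold change, 2 members had an adjusted p under 0.05, beside 5.42% of genes tested, and *AHRR* and *TIPARP* were also the 2 members called by glmTreat against a log2 fold change of 0.5, beside 0.306%. Values below are counts scaled to library size with TMM factors (CPM), unless TPM, the deposited level per transcript length, is written. Means are given ± SD over the n = 3 libraries of a group, and folds compare CRE+VAF347 with CRE. CRE replicate 3 stood apart from the other CRE libraries, as the chi-square of its counts against theirs averaged 8.95 and 9.25 over genes and other replicate pairs had 1.79 to 2.58. It was the highest CRE library in CPM for 6 of the 9 members, beside 40.1% of genes tested. Without it the log2 fold changes of *AHRR* and *TIPARP* were 2.38 and 2.33.

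**Figure D1:**
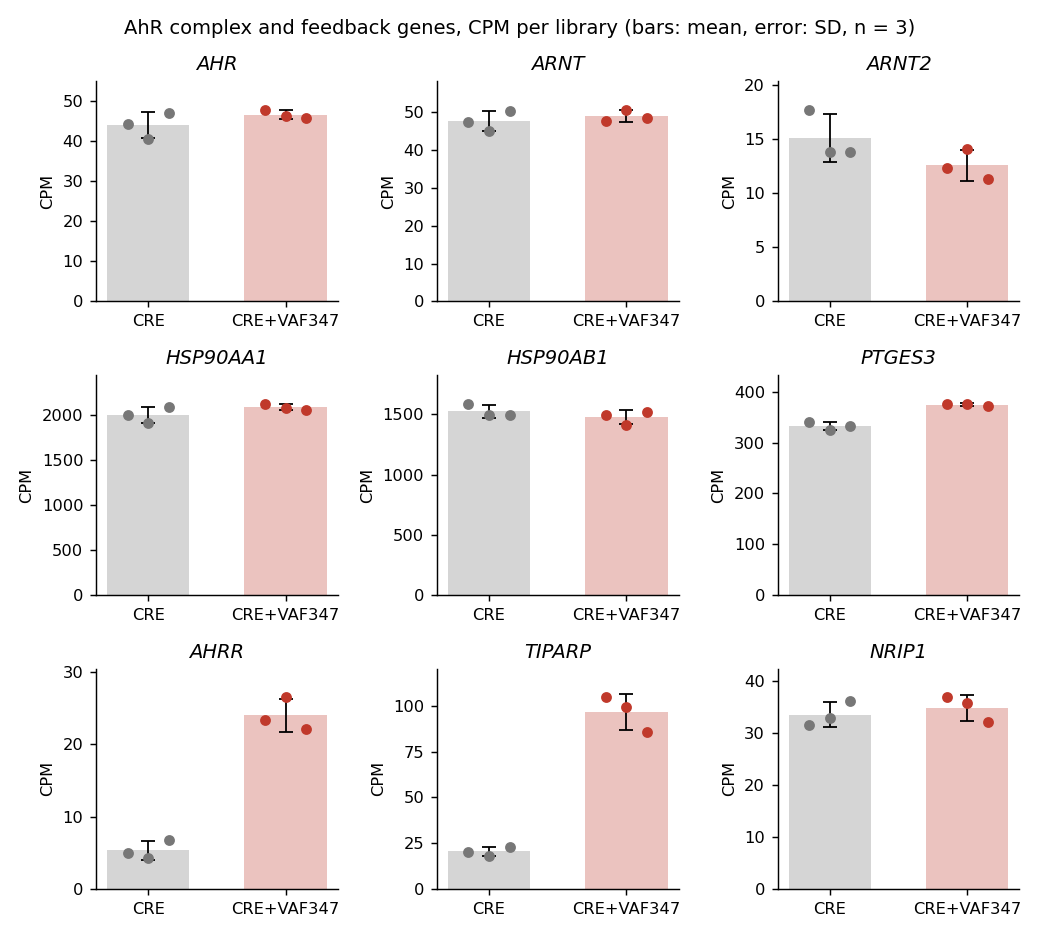
CPM (y axis, from 0) of the 9 genes in each library, with the mean (bar) and SD (error bar) of the 3 CRE (grey) and 3 CRE+VAF347 (red) libraries. For *AHRR* and *TIPARP* every red point lies several times above every grey point, for *PTGES3* the points separate by a small margin, and for the other 6 genes they overlap.

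*TIPARP* lies on chromosome 3 from 156673235 to 156706770 (GRCh38). With CRE its replicates 1 to 3 gave 20.2, 18.1 and 23.1 CPM, and with VAF347 added they gave 104.6, 99.2 and 85.8 CPM. The groups were far apart, and within the CRE+VAF347 group replicate 3 was the lowest. The group means were 20.4 ± 2.5 and 96.5 ± 9.7 CPM, a fitted fold of 4.71 with a 95% interval of 4.03 to 5.51. On the log2 scale this is 2.24 with a standard error of 0.10 (edgeR quasi-likelihood test, adjusted p = 6.04e-07), which ranked 10 in absolute size among all genes tested. In deposited TPM the means were 11.9 ± 2.6 and 56.8 ± 7.1, a ratio of means of 4.77. The antisense gene *TIPARP-AS1* had between 0 and 4 counts in every library, beside 184 to 944 for *TIPARP*.

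*AHRR*, on chromosome 5 from 321714 to 438291, was counted 48, 43 and 73 times in the 3 libraries with CRE alone, and 208, 252 and 222 times where VAF347 was added. These were 4.97, 4.22 and 6.82 CPM with CRE and 23.4, 26.5 and 22.1 CPM with VAF347. CRE replicate 3 was the highest of its group and still lay well below every CRE+VAF347 library. The group means were 5.34 ± 1.34 and 24.0 ± 2.2 CPM, a fitted fold of 4.47 with a 95% interval of 3.52 to 5.67. On the log2 scale this is 2.16 with a standard error of 0.16 (adjusted p = 3.22e-05), rank 14 in absolute size. The intervals of *AHRR* and *TIPARP* overlap, and the difference between the 2 folds was not tested.

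The size of the *AHRR* rise depended on the scale. In TPM, which divides by transcript length, it had 2.33, 1.52 and 3.05 with CRE and 7.47, 7.14 and 6.02 with VAF347, a ratio of means of 2.99 against 4.50 in CPM. On log2(TPM + 1), which understates changes of low genes, limma gave a log2 fold change of 1.28 (adjusted p = 0.0144) when low genes were removed as in the count test. With no such filter the same value had an adjusted p of 0.170 and was not called. On log2(TPM + 0.1) it was 1.59 (adjusted p = 0.0199).

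CPM and TPM differ in library scaling, and TPM also divides by the length that Salmon assigned to the gene. How much of the gap comes from each was not tested, but the second part can be read by itself. Counts divided by TPM, relative to the median gene of the library, give this length factor, which changes when fragments are assigned to longer or shorter transcripts of a gene. On the log2 scale the factor of *AHRR* was 0.55, 0.93 and 0.82 with CRE, against 1.12, 1.38 and 1.38 with VAF347. Every library with VAF347 thus lay above every CRE library. The factors of *ARNT2* (lower with VAF347) and *PTGES3* (higher) separated too. The share of all genes that do so was not counted, so these separations are a description and no result about the members. The group means of the *AHRR* factor were 1.71 ± 0.23 and 2.46 ± 0.25 times that of the median gene, a log2 difference of 0.53 (standard error 0.13). This did not pass the correction over all genes (unadjusted p = 0.00830, adjusted p = 0.651 from limma). limma called 0 of 15301 genes for a length factor difference (0.0%), with 1076 at an unadjusted p under 0.05, and no other tool was run on it. GENCODE v44 lists 11 transcripts of *AHRR*, and how certain the division of its counts among them is was not tested.

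The readthrough gene *PDCD6-AHRR*, on chromosome 5 from 271670 to 438291, contains *AHRR* on its strand. Its estimated counts were 0 throughout the CRE group and 15.4, 5.54 and 0 in CRE+VAF347 replicates 1 to 3, at most 6.91% of the sum of both genes. With the counts of both genes summed, the log2 fold change was 2.20 (adjusted p = 2.84e-05). Whether strand was used in counting is not given in the sources used here.

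*NRIP1*, on chromosome 21 from 14961235 to 15065936, was the gene of the repressor group that did not pass the threshold. It had 31.5, 32.9 and 36.2 CPM with CRE and 36.9, 35.7 and 32.0 CPM with VAF347. The groups overlapped, with the highest CRE library above 2 of the CRE+VAF347 libraries. The fitted fold was 1.04 with a 95% interval of 0.912 to 1.18 (adjusted p = 0.758), and in TPM the means were 10.3 ± 1.8 and 10.2 ± 0.4. A lncRNA gene on the same strand, ENSG00000235609, overlaps *NRIP1* and held up to 21.9% of their summed counts, from 62.0 to 90.0 per library. Its log2 fold change was 0.39 (adjusted p = 0.183).

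**Figure D2:**
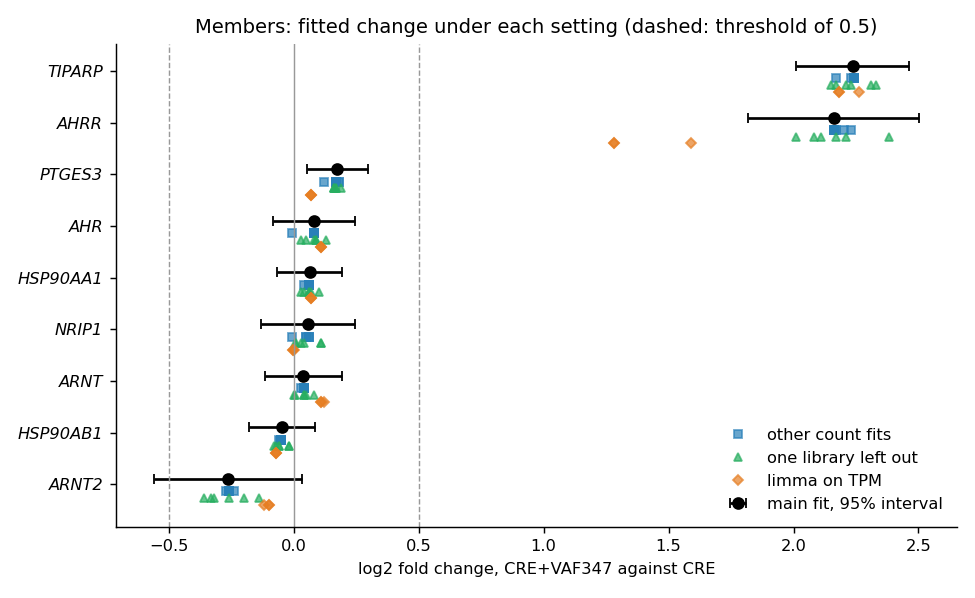
Log2 fold change of each member (x axis), with the main fit and its 95% interval (black), other count fits (blue), fits with 1 library left out (green) and limma on TPM (orange); dashed lines mark the threshold of 0.5 in each direction. *AHRR* and *TIPARP* lie beyond 1.2 in every fit, the TPM values of *AHRR* lie left of its count values, and the main values of the other 7 genes lie between -0.26 and 0.17.

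*AHR* itself, on chromosome 7 from 16916359 to 17346152, showed no change past the threshold. Its level was 44.4, 40.6 and 47.1 CPM with CRE and 47.9, 46.3 and 45.7 CPM with VAF347, with overlapping groups. The fitted fold was 1.06 with a 95% interval of 0.944 to 1.19, which excludes a log2 change of 0.5 in either direction (log2 fold change 0.08, adjusted p = 0.580). *AHR* is the member of lowest GC content, 39.3% over its transcripts. Fold changes in these libraries followed GC content, with Spearman's rho of -0.35 across genes averaging over 3 in log2 CPM (genes are no independent replicates), and the trend alone gave 0.09 at the GC content of *AHR*. With a GC offset for each library its log2 fold change was -0.0089.

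*ARNT*, the dimer partner on chromosome 1 from 150809713 to 150876708, had 47.5, 45.1 and 50.3 CPM with CRE and 47.6, 50.7 and 48.5 CPM with VAF347. The groups overlapped and the fitted fold was 1.03 with a 95% interval of 0.923 to 1.14 (adjusted p = 0.799). *ARNT2*, a paralog on chromosome 15 from 80404350 to 80597933, had 17.7, 13.8 and 13.8 CPM with CRE and 12.4, 14.1 and 11.3 CPM with VAF347. CRE replicate 1 was the highest library, and CRE+VAF347 replicate 2 lay above CRE replicates 2 and 3. The fitted fold was 0.833 with a 95% interval of 0.679 to 1.02 (adjusted p = 0.293), the widest interval of the 7 members that did not pass and the only of them that reaches beyond a log2 change of 0.5. Without CRE replicate 1 the log2 fold change of *ARNT2* went from -0.26 to -0.14.

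Both cytosolic HSP90 chaperones were among the most abundant transcripts. *HSP90AA1*, the stress-inducible form, on chromosome 14 from 102080742 to 102139699, had 1997, 1913 and 2093 CPM with CRE and 2128, 2083 and 2061 CPM with VAF347. *HSP90AB1*, the constitutive form, on chromosome 6 from 44246166 to 44253888, had 1589, 1494 and 1493 CPM with CRE and 1497, 1409 and 1520 CPM with VAF347. Within each gene the groups overlapped. The fitted folds were 1.04 (95% interval 0.955 to 1.14) for *HSP90AA1* and 0.967 (95% interval 0.882 to 1.06) for *HSP90AB1*, with adjusted p of 0.582 and 0.695. The annotated pseudogenes of *HSP90AA1* and *HSP90AB1* together held at most 0.164% and 0.0973% of the counts summed with the respective gene, and adding them left the log2 fold changes at 0.06 and -0.05.

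*PTGES3*, on chromosome 12 from 56663341 to 56688408, had the lowest adjusted p of the 7 members that did not pass. It had 339.7, 324.5 and 331.5 CPM with CRE and 375.9, 376.6 and 370.9 CPM with VAF347, so that the groups did not overlap. Its fitted fold was 1.13 with a 95% interval of 1.04 to 1.23 (log2 fold change 0.17, unadjusted p = 0.00896, adjusted p = 0.0966). Without CRE replicate 3 the adjusted p was 0.0331 at the same log2 fold change of 0.17, which is still under the fold threshold. The GC content of *PTGES3* is 43.2% over its transcripts, and with a GC offset for each library its log2 fold change was 0.12 (edgeR adjusted p = 0.252). In TPM the groups overlapped, with 468.6, 455.5 and 564.5 for CRE and 519.3, 520.8 and 512.9 for VAF347, and limma gave 0.07 on log2(TPM + 1) with an adjusted p of 0.865. In CPM 3 of the 9 members had groups that did not overlap, *AHRR*, *TIPARP* and *PTGES3*, beside 27.3% of all genes tested.

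Compared per length in TPM, the chaperone transcripts were far more abundant than those of the receptor. With CRE the order was *HSP90AA1* (1382 ± 102), *HSP90AB1* (943.1 ± 52.2), *PTGES3* (496.2 ± 59.5), *ARNT* (29.1 ± 2.3), *AHR* (17.9 ± 1.0), *TIPARP* (11.9 ± 2.6), *NRIP1* (10.3 ± 1.8), *ARNT2* (3.41 ± 0.47) and *AHRR* (2.30 ± 0.77). Neighbours in this order had separate ranges except *TIPARP* and *NRIP1*, and *ARNT2* and *AHRR*, which overlapped. With VAF347 *TIPARP* stood above *ARNT* and *AHR*, at 1.80 times the mean of *ARNT*, and *AHRR* stood above *ARNT2*, at 2.20 times its mean. In this group all neighbours had separate ranges. Among genes tested, ranked by mean TPM, *HSP90AA1* stood at 86, *AHR* at 7591 and *ARNT2* at 12563.

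The ratio of repressor to receptor transcripts within a library does not depend on library scaling. *AHRR* over *AHR* in TPM was 0.134, 0.0798 and 0.177 with CRE, against 0.399, 0.350 and 0.317 with VAF347. The mean ratios were 0.130 ± 0.049 and 0.355 ± 0.041, a log2 difference of 1.52. All CRE+VAF347 libraries lay above all CRE libraries, which gives a two-sided exact permutation p of 0.1, the smallest that 3 against 3 allow (0.15 adjusted over the 3 ratios compared). As a ratio of counts the log2 difference was 2.11. *HSP90AA1* over *HSP90AB1* in TPM averaged 1.47 ± 0.09 for the CRE group against 1.62 ± 0.06 for the CRE+VAF347 group, whose ranges did not overlap, a log2 difference of 0.14 (exact permutation p = 0.1, adjusted 0.15). In counts this difference was 0.11 and the groups overlapped (exact permutation p = 0.2). *ARNT2* over *ARNT* in TPM averaged 0.119 ± 0.026 for the CRE group against 0.0994 ± 0.0132 for the CRE+VAF347 group, with overlapping groups (exact permutation p = 0.4).

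**Figure D3:**
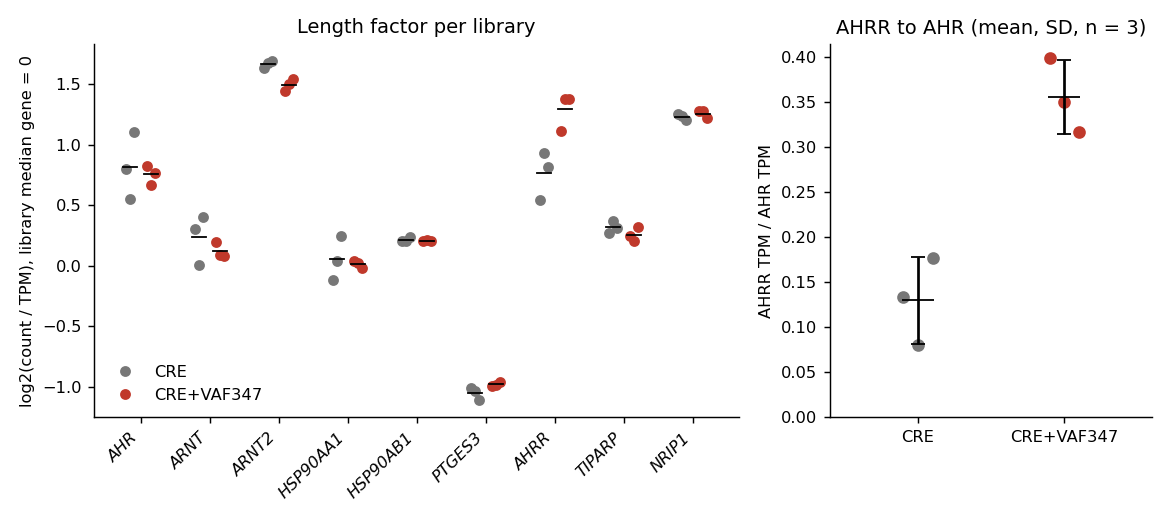
Left, the length factor, log2(count / TPM) with the median gene of each library at 0 (y axis), for each member in the CRE (grey) and CRE+VAF347 (red) libraries, with group means as lines. Right, *AHRR* TPM divided by *AHR* TPM per library, with mean and SD (n = 3); the length factor of *AHRR* and the ratio are both higher in all red libraries.

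The length factor was also read for the other members. That of *ARNT2* was 1.63, 1.67 and 1.69 on the log2 scale with CRE and 1.44, 1.51 and 1.54 with VAF347, a difference of -0.17 (standard error 0.04, unadjusted p = 0.00463, adjusted p = 0.566). For *TIPARP* the difference was -0.06 (standard error 0.04) and the libraries overlapped. The differences of the remaining 6 members lay between -0.11 and 0.07.

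The other genes of the pathway were read from 8 lists. Over all genes tested 20.8% had an unadjusted p under 0.05, 8.87% with higher and 11.9% with lower counts, and the counts at this cutoff given for each list are to be read against these shares. Among 19 HSP90 co-chaperones and related chaperones, all tested, 0 passed the threshold in edgeR or DESeq2, with 1 at an unadjusted p under 0.05 and a median log2 fold change of 0.02. *TRAP1*, the mitochondrial HSP90, had 155, 146 and 164 CPM with CRE and 140, 132 and 138 CPM with VAF347, a log2 fold change of -0.19 (adjusted p = 0.117). *STUB1*, the chaperone-linked ubiquitin ligase CHIP, had a log2 fold change of 0.14 (adjusted p = 0.243).

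Of 10 heat shock factor targets, 0 passed the threshold in edgeR or DESeq2, with 2 at an unadjusted p under 0.05 and a median of 0.00. *HSPB1*, a small heat shock protein, had a log2 fold change of -0.34 (adjusted p = 0.0260), under the fold threshold, and *DNAJB4* of -0.25 (adjusted p = 0.414). Of 9 genes of AhR turnover and transport, such as the CUL4B ubiquitin ligase, 0 passed in either tool, with 2 at an unadjusted p under 0.05 and a median of 0.05. The largest values in that list were -0.22 for *TBL3* (adjusted p = 0.0878) and 0.20 for *RBX1* (adjusted p = 0.405). Of 18 coactivators and corepressors, 0 passed in either tool, with 2 at an unadjusted p under 0.05 and a median of -0.04. *SMARCA4*, an ATPase of the SWI/SNF chromatin remodelling complex, had a log2 fold change of -0.19 (adjusted p = 0.329).

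A list named for the bHLH-PAS family, to which *AHR*, *ARNT* and *AHRR* belong, also held related PAS genes such as *PER3*. Of its 18 genes 13 were tested, of which 1 rose and 1 fell. An unadjusted p under 0.05 was found for 6, of which 3 were higher and 3 lower. *EPAS1*, which encodes the hypoxia factor HIF-2 alpha and is named after its values were seen, had a log2 fold change of -0.36 (adjusted p = 0.00617), under the fold threshold. *NPAS2*, a partner of the circadian factor BMAL1, had 83, 77 and 80 counts with CRE and 114, 118 and 122 with VAF347. Its mean CPM rose from 7.88 ± 0.62 up to 12.5 ± 0.3, a log2 fold change of 0.66 (adjusted p = 0.00847). *PER3*, a circadian repressor, had 175, 168 and 209 counts with CRE and 91, 98 and 119 with VAF347. Its CPM fell from 18.1, 16.5 and 19.5 down to 10.2, 10.3 and 11.9, a log2 fold change of -0.74 (adjusted p = 0.00421). For both genes the groups were separate in CPM. The limma fits on TPM called neither gene.

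*TIPARP* belongs to the PARP family of ADP-ribosyltransferases. Of 15 other tested members of this family, 0 passed in edgeR or DESeq2, with 5 at an unadjusted p under 0.05, all of them lower with VAF347, and a median of -0.12. *PARP3* had a log2 fold change of -0.39 (adjusted p = 0.0741) and *PARP9* of -0.27 (adjusted p = 0.0616). Of 16 tested nuclear receptors that RIP140 can bind, 0 passed in either tool, with 4 at an unadjusted p under 0.05 and a median of 0.00. *THRB*, a thyroid hormone receptor, and *RARG*, a retinoic acid receptor, named after their values were seen, had adjusted p of 0.0257 and 0.0278 at log2 fold changes of -0.44 and -0.27, under the fold threshold. *RARB* and *ESR2*, with at most 4.90 CPM in a group mean, had log2 fold changes of -0.52 (adjusted p = 0.460) and 0.47 (adjusted p = 0.247).

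Of the 10 genes in the list of known AhR targets 8 were tested, which include *AHRR*, *TIPARP* and *NRIP1*. *CYP1A2* and *ALDH3A1* did not have enough counts. Of the tested genes 7 rose past the threshold, beside 0.501% of all genes tested, and the exception was *NRIP1*. The list was chosen with earlier results of these data known, and the paper had already reported higher *AHRR*, *CYP1B1* and *CYP1A1* with VAF347. *CYP1A1*, the classical AhR-induced cytochrome, was counted 6, 8 and 5 times with CRE, against 454, 412 and 460 times with VAF347 (log2 fold change 6.20). *CYP1B1* had 69.7 ± 4.4 CPM and then 614 ± 44.4 CPM (log2 fold change 3.14). *SLC7A5*, *NQO1* and *UGT1A6*, the last of which shares exons with its neighbours in the UGT1A cluster, had log2 fold changes of 1.48, 0.86 and 0.65.

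**Figure D4:**
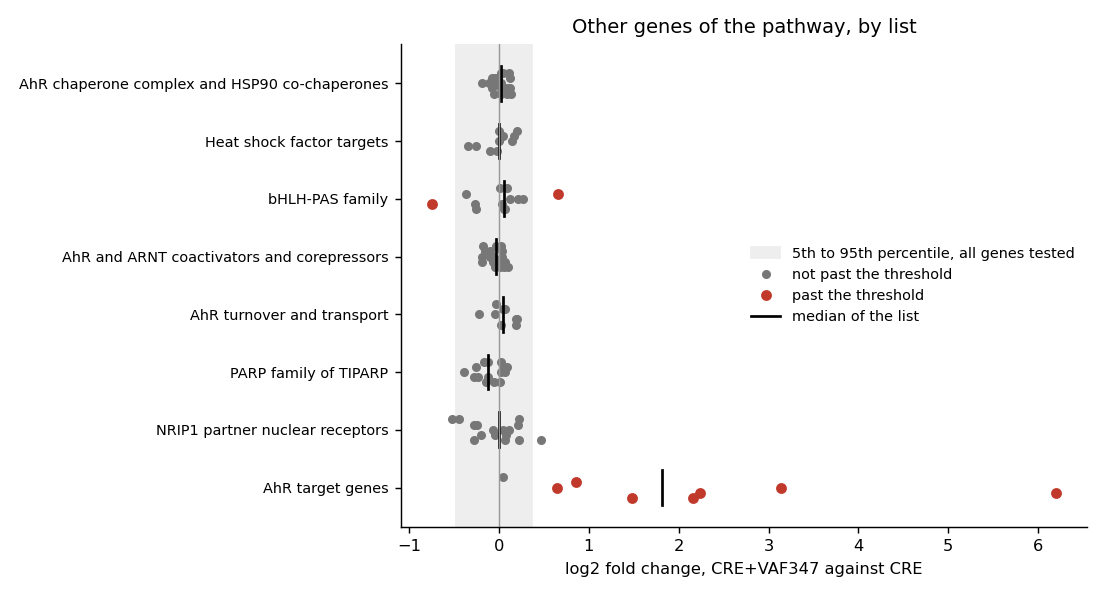
Log2 fold change (x axis) of each tested gene in the 8 lists (rows), with genes past the threshold in red, list medians as black lines and the range from the 5th to the 95th percentile of all genes tested in grey (-0.47 to 0.37). The red points are 7 AhR target genes, *AHRR* and *TIPARP* included, and *NPAS2* and *PER3* of the list named for the bHLH-PAS family.

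By Pearson's r of log2 CPM over the 6 libraries, the genes most like *TIPARP* were *ALDH1A3* (0.997), *EREG* (0.997) and *CYP1B1* (0.996), all of which rose past the threshold. Those most like *AHRR* were *SNX14* (0.996), *CYP1B1-AS1* (0.996) and *TIPARP* (0.993). *SNX14* had a log2 fold change of 0.27 that was not called. Those most like *AHR* were *PPP1R2* (0.991), *MARCHF3* (0.989) and *HSP90AA1* (0.988), and those most like *NRIP1* were *FAN1* (0.995), *RNF139* (0.978) and *IL17D* (0.978), none of them called. These are the highest of many correlations over few libraries that share 2 conditions, and are given as a description.

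The libraries held 8873160 to 10750283 counts. Epithelial *KRT8* (1220 TPM on average), *KRT18*, *KRT19*, *EPCAM* and *CDH1* (266 TPM) were abundant. Of the basal markers, *KRT17* averaged 149 TPM, *KRT15* 11.6 TPM and *KRT5* 8.69 TPM, *TP63* and *KRT14* were at or below 0.2 TPM, and *SCGB1A1* of club cells and *MUC5AC* of goblet cells were listed at 0 in every library. Summed TPM of the 13 airway epithelial markers ran from 3470 to 4320 with CRE and from 3490 to 3560 with VAF347. In the count test 0 of the 9 tested markers passed the threshold in edgeR or DESeq2, but 4 had an unadjusted p under 0.05, all lower with VAF347, and the list median was -0.23. *KRT19* (log2 fold change -0.38, adjusted p = 0.0266) and *KRT17* (-0.27, adjusted p = 0.0240) were below 0.05 but under the fold threshold. Fibroblast markers summed to 19.4 to 20.8 and 14.9 to 19.0 TPM, nearly all *COL1A1* (17.7 TPM on average). *PDGFRB* and *COL1A2* averaged 0.556 and 0.221 TPM, and *DCN*, *LUM* and *PDGFRA* were at 0. Immune markers summed to at most 1.55 TPM. Endothelial markers summed to 7.31 to 7.92 and 3.95 to 4.67 TPM, nearly all *CDH5*, and both tested, *CDH5* and *VWF*, fell past the threshold in edgeR (log2 fold changes -0.84 and -1.45), where DESeq2 called *CDH5* and gave *VWF* no adjusted p, while *PECAM1* was at most 0.0659 TPM. The part of these marker differences in the members' values was not tested. In bulk RNA a change in the number of cells that express a gene and a change of RNA per cell cannot be told apart.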

How the data were processed

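RNA-seq of HBECs was analysed in 6 libraries, 3 with CRE and 3 with CRE+VAF347, assigned from the sample labels, which name the table columns; 0 columns of per-sample values were unmatched. The authors made the deposited expected counts with Salmon from poly(A)-enriched paired-end libraries and summed them per gene symbol, without scaling to depth, and the deposited TPM from the same step. The submitters' processing notes name hg38. The annotation and strand setting are not given in the sources used here, but all 61228 names occur in GENCODE v44 on GRCh38. A deposited table of the authors' own comparison (fold changes, p-values, mean counts) was not used.

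Counts were rounded (39.3% of nonzero values were not whole) and fitted over all genes with edgeR 4.0.16 under R 4.3.3, using the quasi-likelihood test with TMM factors, the filterByExpr filter and Benjamini-Hochberg adjustment. Standard errors are the absolute log2 fold change over the square root of F. Alternatives used DESeq2 1.42.0 and limma 3.58.1. Scripts were tested on simulated data. A single count was worth 0.0930 to 0.113 CPM, and the libraries held 8873160 to 10750283 counts. The members and lists were chosen with earlier results of these data known. Genes named are the 9 members; of each list, those past the threshold or else the 2 with the largest change; overlapping genes and pseudogenes; and the 3 genes with a symbol most correlated with each of *AHR*, *AHRR*, *TIPARP* and *NRIP1*. Some genes that this rule covers are not reported here.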

Additional observations from a re-analysis of the deposited data

How the results depend on the processing

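*AHRR* and *TIPARP* passed the threshold in the count fits with DESeq2 size factors, DESeq2's Wald test, no filter, at least 10 counts in every library, a GC offset, glmTreat against a log2 fold change of 0.5 (2 members called) and without each library in turn. With the replicate number as a block their log2 fold changes were 2.16 and 2.23, and 2 members were called; same-numbered libraries had correlations of deviations of 0.0706, 0.104 and 0.0462, so the numbers were not taken to pair them, each CRE library correlated best with its own number, and the block changed the count of all calls from 340 to 319. With limma on log2(TPM + 1) and no filter, 1 member was called, and *AHRR* had 1.28 with an adjusted p of 0.170. Calls over all genes were 598 with no filter, 140 with limma on log2(TPM + 1), 128 on log2(TPM + 0.1), 32 with limma and no filter, 47 with glmTreat and 833 at any fold change; at any fold change the no-filter fit and the 3 limma fits gave 1586, 146, 133 and 32. Without each library in turn, calls ran from 201 (without CRE+VAF347 replicate 3) to 380, while at any fold change the lowest was 305, with the same library left out, and leaving out CRE replicate 3 gave the highest, 1287; CRE replicate 2 and CRE+VAF347 replicates 1 and 2 gave 501, 381 and 338. In these fits the log2 fold change ran from 2.01 to 2.38 for *AHRR* and from 2.15 to 2.33 for *TIPARP*. Values that changed sign were small: *AHR* was -0.0089 with a GC offset, and *NRIP1* was -0.0014, -0.00059 and -0.0014 in the 3 limma fits and -0.0074 with a GC offset. The bHLH-PAS list had 0 calls in each of the 3 limma fits, and the AhR targets had 4 with limma and no filter. The *AHRR* to *AHR* ratio had a log2 difference of 2.11 in counts, and 1.20 to 1.78 without each library. Without centring, the length factor difference was -0.04 for *NRIP1* and 0.0028 for *PTGES3*, beside 0.03 and 0.07 with centring. Without each library in turn, the length factor ran from -0.20 to 0.08 for *AHR*, -0.13 to 0.06 for *HSP90AA1*, -0.01 to 0.0059 for *HSP90AB1* and 0.42 to 0.62 for *AHRR*. The cause of these differences was not tested. With CRE, *AHRR* had 43 to 73 counts, the fewest of the members, so its counting error is the largest there relative to its count.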
